A study of Homo sapiens with 5 samples.

Results

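The 10 genes described here encode the core of the Nodal signalling pathway in human embryonic stem cells: the ligands NODAL and GDF3, the co-receptor TDGF1, the secreted inhibitors LEFTY1, LEFTY2 and CER1, the receptors ACVR1B and ACVR2B, and the signal transducers SMAD2 and SMAD3. They were taken by gene symbol from the 33857 genes listed in a table of poly(A+) RNA-seq, without use of their values, and all 10 were listed and had levels high enough to be tested. The cells were H9, an established line of human embryonic stem cells, grown in mTeSR medium. Mock control cells were 2 clones that had received the CRISPR/Cas9 vector with no gRNA. CFIm25-m cells were 3 clones made with independent gRNAs against NUDT21, the gene of the mRNA 3' processing factor CFIm25. The labels call these clones KO, and the study describes them as knockdown clones that keep a CFIm25 protein with a short N-terminal deletion. Each sample is thus 1 clone, and the labels do not tie the replicate numbers to the clone names. Both groups had received a CRISPR/Cas9 vector and shared the cell line and medium. The values are normalized counts, in which the reads of a gene had been scaled by the size factor of the library.

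Nodal and the related ligand GDF3 belong to the TGF-beta family and act on cells through type I and type II activin receptors together with an EGF-CFC co-receptor, of which TDGF1, also named CRIPTO, is the founding member. The activated receptors phosphorylate SMAD2 and SMAD3, which enter the nucleus with SMAD4 and bind DNA beside partners such as FOXH1. NODAL, LEFTY1 and LEFTY2 are themselves targets of this pathway, so that Nodal induces both its own synthesis and that of its inhibitors. In human embryonic stem cells Activin and Nodal signalling is known to sustain pluripotency, and in the embryo it specifies mesendoderm.

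The edited gene NUDT21 was examined first. The mock controls had 6503 and 6398 normalized counts of it, against 4035, 3281 and 3400 in CFIm25-m replicates 1, 2 and 3. Its log2 fold change was -0.86 with a limma-trend adjusted p of 0.00431, and its mRNA was lower in every clone and still present in all of them. This adjusted p was 0.0854 and 0.0722 without mock control replicate 1 or 2, and 0.106 without the variance trend. The libraries held between 18754108 and 23372391 reads. The pluripotency factors POU5F1 and SOX2 lay between 30200 and 38899 and between 7227 and 9196 normalized counts in the 5 samples, and neither passed the test. All 8 markers of pluripotent cells were expressed and 0 of 8 passed the test by limma-trend, beside 1.88% of the 19232 tested genes. An unadjusted limma-trend p under 0.05 was reached by 3 of 8, all 3 lower in CFIm25-m, beside 15.1% of all tested genes in either direction. Markers of other lineages were low. The summed level of 9 mesendoderm and endoderm markers was 47.3 and 56.9 in mock control and 65.1, 36.0 and 52.9 in CFIm25-m replicates 1, 2 and 3, with FOXA2 and SOX17 at 0 or 1 read in each sample. The 5 neuroectoderm markers summed to between 10995 and 14141, nearly all of it from NES and OTX2, which pluripotent cells also express, while PAX6 lay between 3.46 and 9.0. Those of trophectoderm or amnion that are listed summed to between 150.1 and 277.6, mainly KRT7, with CDX2 at 0 or 1 read in each sample. A lower level in such bulk samples can come from fewer expressing cells or from less RNA per cell, which cannot be told apart.

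No gene of the pathway core passed the test for a difference between mock control and CFIm25-m. By limma-trend on log2(normalized count + 1), 0 of 10 passed an adjusted p of 0.05, beside 1.88% of the 19232 tested genes. An unadjusted p under 0.05 was reached by 1 of 10, the type I receptor gene ACVR1B, beside 15.1% of all tested genes. Counts of 0 of 10 were also obtained with edgeR and with DESeq2, which called 1.81% and 3.27% of all tested genes. Values of the groups did not overlap for 4 of 10 genes (TDGF1, ACVR1B, SMAD2 and SMAD3), beside 36.8% of all tested genes. The median log2 fold change was -0.11 over the 10 genes and -0.011 over all tested genes. The ligand and inhibitor genes instead differed among the CFIm25-m clones, by up to 6.19-fold for LEFTY1.

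**Figure D1:**
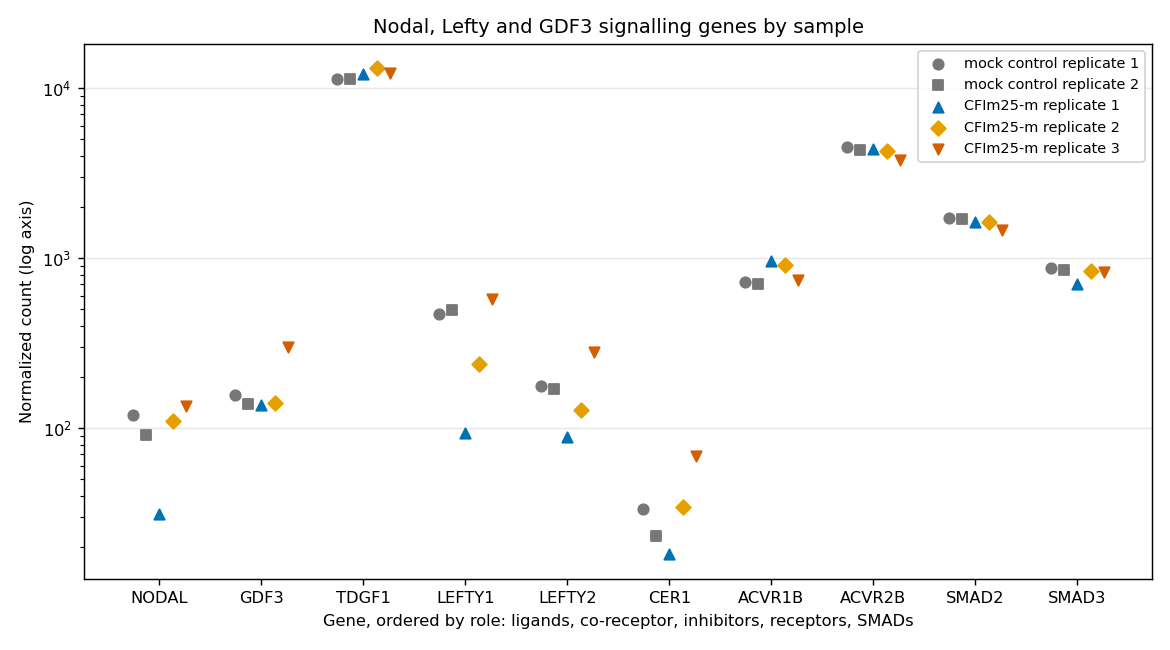
Normalized count (log axis) of each of the 10 genes in the 2 mock control samples (grey) and the 3 CFIm25-m clones (coloured), 1 point per sample. TDGF1 lay between 11270 and 13087, while the 3 clones spread over 93.2 to 577 for LEFTY1 and over 31.1 to 136 for NODAL.

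NODAL (ENSG00000156574, minus strand of chromosome 10, 70432315 to 70447951, hg38) encodes the ligand that gives the pathway its name. In mock control it had normalized counts of 119 and 90.7, whereas CFIm25-m replicates 1, 2 and 3 had 31.1, 111 and 136. Replicate 1 lay below both mock controls, replicate 2 between them and replicate 3 above them. The value of replicate 1 rested on 31 reads, with an exact 95% Poisson interval of 21.1 to 44, and that of replicate 3 on 141 reads, with an interval of 119 to 166. These intervals cover counting error only. The mean was 105 ± 19.8 (SD, n = 2) in mock control, against 92.5 ± 54.6 (SD, n = 3) in CFIm25-m. CFIm25-m differed from mock control by a log2 fold change of -0.41 with a 95% interval of -1.55 to 0.73 and a limma-trend adjusted p of 0.740. It was -0.15 with edgeR, -0.16 with DESeq2, and 0.24 by limma-trend without replicate 1. The locus AC022532.1, annotated on the opposite strand within NODAL, lay between 15.0 and 22.2 in all samples. Strand use in counting is not given in the sources used here, so reads of such overlapping loci may not have been told apart.

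GDF3 (ENSG00000184344, minus strand of chromosome 12, 7689782 to 7695776) encodes a ligand that can signal through the same receptors and is a known marker of human pluripotent cells. Mock control cells had 156 and 139 normalized counts, and the CFIm25-m clones 137, 141 and 299. Replicates 1 and 2 thus stood at the level of the mock controls, and replicate 3 stood apart with 311 reads (exact 95% Poisson interval 277 to 348). The means were 147 ± 11.8 (SD, n = 2) and 193 ± 92.3 (SD, n = 3). For GDF3 the log2 fold change was 0.29 with a 95% interval of -0.39 to 0.97 and a limma-trend adjusted p of 0.686, and it was -0.077 without replicate 3.

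The sequences just upstream of NODAL, GDF3 and CER1 are shown, since SMAD complexes are known to act on such regions. These genes were picked after their spread among the clones was seen. Whether the motifs bear on that spread was not tested. RefSeq promoters of GRCh38.p14 were matched for 7 of the 10 genes, and the entries for LEFTY1, LEFTY2 and TDGF1 were missing. Capitals mark a SMAD box (CAGAC, the core that SMAD3 and SMAD4 bind) or a FOXH1 site (AATNNACA), searched on both strands, and each run ends at the base before the annotated start. The 2 motifs do not overlap in these windows. The runs lie on the minus strand at chr10:70441682-70441931 for NODAL, chr12:7695776-7696025 for GDF3 and chr9:14722734-14722983 for CER1.
NODAL: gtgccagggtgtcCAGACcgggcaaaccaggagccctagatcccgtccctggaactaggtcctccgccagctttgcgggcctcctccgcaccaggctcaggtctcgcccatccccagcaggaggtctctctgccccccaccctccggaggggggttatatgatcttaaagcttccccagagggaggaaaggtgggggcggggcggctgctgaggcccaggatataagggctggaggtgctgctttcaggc
GDF3: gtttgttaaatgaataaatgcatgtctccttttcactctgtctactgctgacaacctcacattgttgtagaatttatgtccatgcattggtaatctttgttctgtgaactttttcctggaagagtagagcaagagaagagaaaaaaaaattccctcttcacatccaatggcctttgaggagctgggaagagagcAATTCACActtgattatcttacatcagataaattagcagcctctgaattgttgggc
CER1: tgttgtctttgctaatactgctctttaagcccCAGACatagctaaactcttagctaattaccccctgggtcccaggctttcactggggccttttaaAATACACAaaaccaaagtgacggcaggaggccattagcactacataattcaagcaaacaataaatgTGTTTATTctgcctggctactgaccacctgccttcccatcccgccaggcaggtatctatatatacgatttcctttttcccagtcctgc
The NODAL window held 1 SMAD box, which began at position -237 from the start, the GDF3 window held 1 FOXH1 site at position -56, and the CER1 window held 1 SMAD box at position -218 and 2 FOXH1 sites. Windows of this length contained a SMAD box in 38% and a FOXH1 site in 9.89% of the 35093 promoters in the RefSeq table. Among the 13 promoters of the 7 matched genes, 5 contained a SMAD box and 3 a FOXH1 site. The NODAL start used here lies within the longer gene span of the deposited table.

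TDGF1 (ENSG00000241186, plus strand of chromosome 3, 46574534 to 46582463) encodes the co-receptor that Nodal and GDF3 need for efficient signalling. It had the highest level of the 10 genes, with 11270 and 11313 normalized counts in mock control against 12070, 13087 and 12217 in CFIm25-m. All 3 clones lay above both mock controls, by 0.096, 0.21 and 0.11 on the log2 scale. Across the clones the log2 fold change was 0.14 with a 95% interval of -0.073 to 0.35 and a limma-trend adjusted p of 0.519. The interval thus reached neither a doubling nor a halving.

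Some RNA counted for TDGF1 could be shared with other loci. The transcribed pseudogene TDGF1P3 had normalized counts of 391 and 473 in mock control and 452, 465 and 426 in CFIm25-m. Of the 75-base windows of the canonical TDGF1 transcript in GENCODE, 23.4% occurred unchanged in TDGF1P3, so the level of either gene may include reads of the other. TDGF1P5, TDGF1P6 and TDGF1P7 did not exceed 10.4 in any sample. LRRC2, which overlaps TDGF1 on the minus strand, lay at 195 and 205 in mock control, whereas the CFIm25-m clones had 244 to 289, with a log2 fold change of 0.43 and a limma-trend adjusted p of 0.193. AC104304.1, which overlaps on the plus strand, lay between 31.1 and 62.5.

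LEFTY1 (ENSG00000243709, minus strand of chromosome 1, 225886282 to 225911382) encodes a secreted inhibitor that binds Nodal and its co-receptor. Normalized counts of 471 and 495 were measured in mock control, against 93.2, 239 and 577 in CFIm25-m replicates 1, 2 and 3. The mock controls agreed closely, while replicates 1 and 2 lay below them and replicate 3 above them. The means were 483 ± 16.7 (SD, n = 2) and 303 ± 248 (SD, n = 3). LEFTY1 had a log2 fold change of -1.04, the largest in size of the 10 genes, with a 95% interval of -2.27 to 0.20 and a limma-trend adjusted p of 0.412. It was -0.64 with edgeR and -0.65 with DESeq2. Without replicate 1 it was -0.38 with a limma-trend adjusted p of 0.644. Without replicate 3 it was -1.69 with a limma-trend adjusted p of 0.0158, in a test that called 5.56% of all tested genes.

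LEFTY2 (ENSG00000143768, minus strand of chromosome 1, 225936598 to 225941489) encodes the paralogous inhibitor and lies 25215 bases from LEFTY1 in the deposited gene models. The mock controls had 177 and 171 normalized counts of LEFTY2, against 89.2, 127 and 280 in CFIm25-m. The order of the clones was that of LEFTY1, with replicates 1 and 2 below both mock controls and replicate 3 above them. The means were 174 ± 4.73 (SD, n = 2) and 165 ± 101 (SD, n = 3). For LEFTY2 the log2 fold change was -0.24 with a 95% interval of -1.09 to 0.60 and a limma-trend adjusted p of 0.799. It was -0.048 with edgeR and -0.058 with DESeq2. By limma-trend it was 0.11 without replicate 1, and -0.71 without replicate 3 with a limma-trend adjusted p of 0.0643.

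The LEFTY genes are near copies, and reads from their shared stretches may not have been assigned to the right gene. Their coding sequences in GENCODE were identical at 97.2% of 1101 positions, with an identical run of 300 bases. Of all 75-base windows, 23.7% of the LEFTY1 transcript and 18.9% of the LEFTY2 transcript occurred in the other. The deposited span of LEFTY1 also runs 22236 bases past that of RefSeq at its 5' end. The sum of both genes, which a wrong assignment of reads from one to the other would not change, was 649 and 666 in mock control and 182, 366 and 857 in CFIm25-m. The order of the clones in this sum was that of each gene. The mean sum was lower by 189 normalized counts in CFIm25-m, with a two-sided exact permutation p of 0.6, where 10 arrangements of the samples allow no p below 0.1. This difference was -45.7 without replicate 1 and -383 without replicate 3. The ratio of LEFTY1 to LEFTY2 was 2.66 and 2.90 in mock control and 1.04, 1.89 and 2.06 in CFIm25-m, which do not overlap. This ratio was looked at after the values were seen and was not tested. The LEFTY pseudogene AC099066.3 did not exceed 4.83 in any sample.

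CER1 (ENSG00000147869, minus strand of chromosome 9, 14719724 to 14722717) encodes Cerberus, a secreted antagonist of Nodal and BMP ligands that is best known from anterior endoderm. It was the lowest of the 10 genes, with normalized counts of 33.4 and 23.2 in mock control and 18.0, 34.2 and 68.3 in CFIm25-m. Replicate 1 lay below both mock controls and replicates 2 and 3 above them. The reads behind these values were 29 and 24 in mock control and 18, 38 and 71 in CFIm25-m. The exact 95% Poisson interval was 10.7 to 28.4 reads for replicate 1 and 55.5 to 89.6 reads for replicate 3. For CER1 the log2 fold change was 0.32 with a 95% interval of -0.76 to 1.40 and a limma-trend adjusted p of 0.794, and it was -0.16 without replicate 3.

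ACVR1B (ENSG00000135503, plus strand of chromosome 12, 51951667 to 51997078) encodes ALK4, a type I receptor kinase for Activin and Nodal. In mock control ACVR1B had 720 and 705 normalized counts, whereas the CFIm25-m clones had 956, 908 and 744. All 3 clones lay above both mock controls, replicate 3 only slightly. The means were 713 ± 10.5 (SD, n = 2) and 870 ± 111 (SD, n = 3). The log2 fold change was 0.28 with a 95% interval of 0.00197 to 0.55, an unadjusted limma-trend p of 0.0487 and an adjusted p of 0.326. Without replicate 3 it was 0.39 with a limma-trend adjusted p of 0.0244, so that ACVR1B and LEFTY1 were the 2 of 10 genes that passed the test when this clone was left out, beside 5.56% of all tested genes in that test.

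ACVR2B (ENSG00000114739, plus strand of chromosome 3, 38453851 to 38493142) encodes a type II receptor for the same ligands. Mock control cells had 4491 and 4320 normalized counts of ACVR2B, against 4369, 4291 and 3777 in CFIm25-m. Replicate 1 lay between the mock controls and the other 2 clones lay below them. The log2 fold change was -0.090 with a 95% interval of -0.31 to 0.13 and a limma-trend adjusted p of 0.696. The antisense gene ACVR2B-AS1 lay between 103 and 147 in all samples.

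SMAD2 (ENSG00000175387, minus strand of chromosome 18, 47808957 to 47931146) and SMAD3 (ENSG00000166949, plus strand of chromosome 15, 67063763 to 67195195) encode the transcription factors that the activated receptors phosphorylate. The normalized counts of SMAD2 were 1710 and 1703 in mock control and 1624, 1631 and 1462 in CFIm25-m. Those of SMAD3 were 876 and 846 in mock control and 708, 838 and 833 in CFIm25-m. Every clone lay below both mock controls for each gene, for SMAD3 by a wide margin only in replicate 1. The log2 fold change was -0.12 for SMAD2 with a 95% interval of -0.33 to 0.090 and a limma-trend adjusted p of 0.579. For SMAD3 it was -0.12 with a 95% interval of -0.37 to 0.13 and a limma-trend adjusted p of 0.634. The loci that overlap SMAD2 or SMAD3 did not exceed 14.4 in any sample. Among them the antisense gene AC087482.1, which overlaps the 5' end of SMAD3, lay at 4.61 and 5.79 in mock control, whereas the CFIm25-m clones had 11.7 to 14.4. Its log2 fold change was 1.18 with a limma-trend adjusted p of 0.234. AC087482.1 met the filter of 10 normalized counts in 2 samples only through CFIm25-m, where it was high. The small RNA gene RNU6-574P within ACVR1B did not exceed 2.70.

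**Figure D2:**
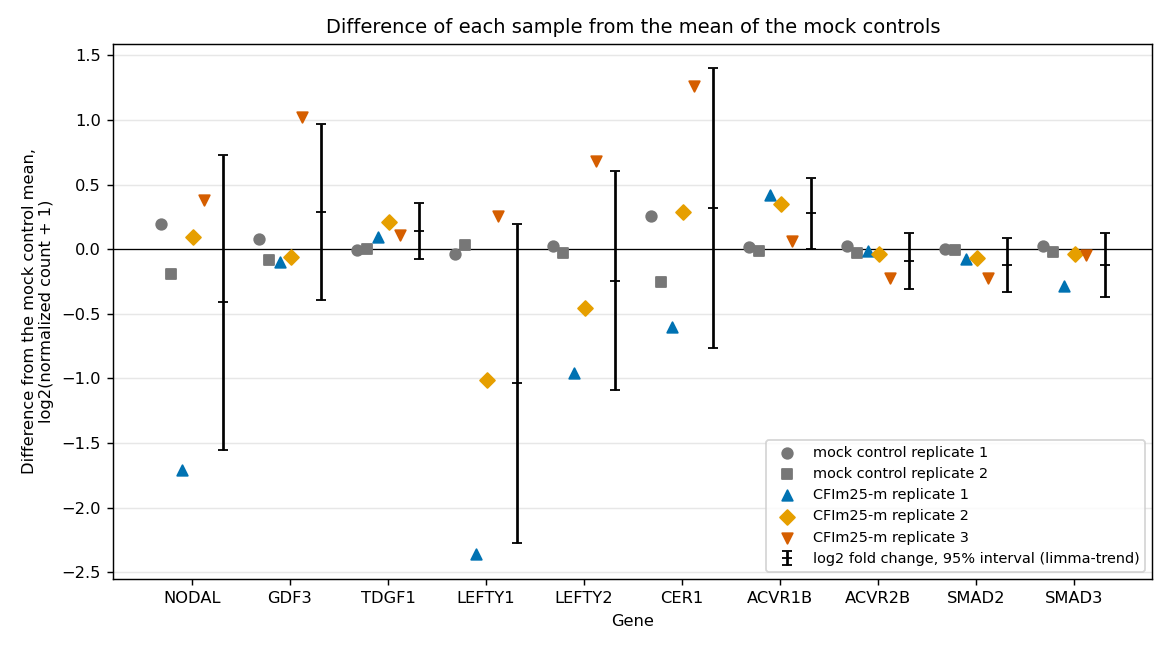
Difference of each sample from the mock control mean on the log2(normalized count + 1) scale, 1 point per sample, with the log2 fold change and its 95% interval from limma-trend as the black bar at the right of each gene. Replicate 1 of CFIm25-m was lowest and replicate 3 highest of the clones for NODAL, GDF3, LEFTY1, LEFTY2 and CER1, and the interval of ACVR1B alone lay above 0.

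The genes separated by role in how far the clones differed from each other. On the log2(normalized count + 1) scale the range over the 3 clones was 2.62 for LEFTY1, 2.09 for NODAL, 1.86 for CER1, 1.64 for LEFTY2 and 1.12 for GDF3. It was between 0.12 and 0.36 for the co-receptor, the receptors and the SMADs, where the median over all tested genes was 0.36. Clones thus differed by more than 2-fold for 5 of 10 genes, which were both ligands and all 3 inhibitors, beside 11.1% of all tested genes and 10.3% of the 8775 tested genes with a mean normalized count between 20 and 500, the range in which all 5 lie. In the same 5 genes replicate 1 was the lowest and replicate 3 the highest clone, beside 16.1% of all tested genes. This order was noticed after the values were seen, the genes are linked in 1 pathway and the LEFTY genes share reads, so the counts are given as a description. The mock controls differed by 0.38 on this scale for NODAL, by 0.51 for CER1 and by 0.055 to 0.16 for the other 3 genes. Over all tested genes the median difference between the mock controls was 0.10. NODAL and CER1 thus also differed more than most genes between the mock controls. A range over 2 samples is expected to be smaller than one over 3, so mock control and clone ranges are not directly comparable.

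Outside the core, 8 of 41 tested pathway genes had the same clone order, a share close to the 16.1% of all tested genes. SMAD7, an inhibitory SMAD induced by the pathway, lay at 205, 306 and 437 in the clones and at 352 and 457 in mock control. PMEPA1, another feedback inhibitor, lay at 339, 508 and 547 in the clones and at 514 and 518 in mock control. LHX1, a target gene, ran the other way with 41.1, 34.2 and 21.2 in the clones and 17.3 and 17.4 in mock control. WNT3 lay at 17.0, 33.3 and 60.6 in the clones and at 35.7 and 31.8 in mock control. Of the pluripotency markers, 2 of 8 showed this order, beside 16.1% of all tested genes. They were NANOG with 852, 1118 and 1245, also counted above among the pathway genes, and DNMT3B with 41046, 43327 and 51168. The others did not, among them POU5F1 with 34789, 38899 and 33173 and LIN28A, which fell, with 48004, 47651 and 33717. These examples were chosen after the values were seen. The part of pluripotency level in the spread of the ligands and inhibitors was not tested.

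Per kilobase of gene length, TDGF1 was by far the most abundant mRNA of the pathway core. Its level was 3756 ± 10.2 (SD, n = 2) normalized counts per kilobase in mock control, against 4144 ± 183 (SD, n = 3) in CFIm25-m. ACVR2B followed at 280 ± 7.68 and LEFTY1 at 256 ± 8.85 in mock control, with ACVR1B at 125 ± 1.85 and GDF3 at 119 ± 9.49 next. SMAD3 lay at 94.5 ± 2.30, LEFTY2 at 72.8 ± 1.98 and NODAL at 61.9 ± 11.7. SMAD2 at 46.9 ± 0.139 and CER1 at 23.3 ± 5.97 were the lowest (all SD, n = 2). In mock control the values of neighbours in this order did not overlap except for ACVR1B and GDF3, and LEFTY2 and NODAL differed by less than the spread of NODAL. Among the clones, neighbours in this order overlapped except for TDGF1 above ACVR2B and GDF3 above SMAD3. The deposited length of SMAD2, 36366 bases, is the union of its exons and lowers its level per kilobase. The levels of LEFTY1, LEFTY2 and TDGF1 carry the uncertainty of their shared sequences.

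**Figure D3:**
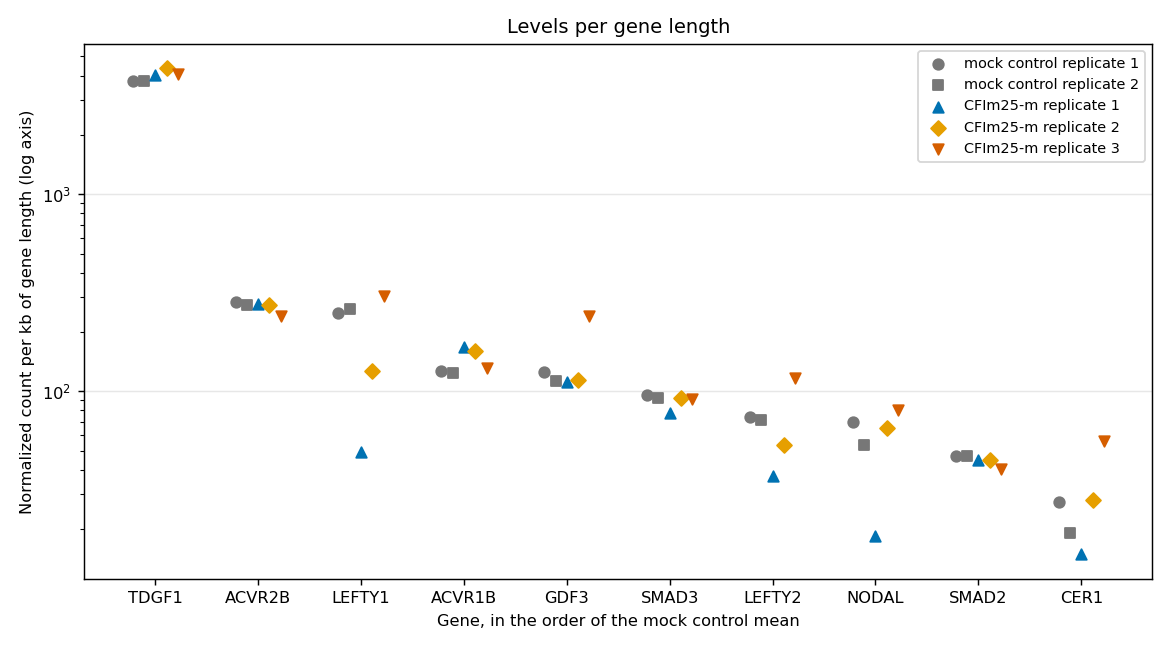
Normalized count per kilobase of gene length (log axis) of the 10 genes in each sample, in the order of the mock control mean. The clones overlap between most neighbouring genes, and TDGF1 lies above all other genes in each of the 5 samples.

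The other genes of Nodal, Activin and TGF-beta signalling were also mostly not called. Of 51 such genes, 49 were listed and 41 tested, and GDF1 and CFC1B were not analysed here. Limma-trend called 0 of 41 higher and 1 of 41 lower, beside 1.88% of all tested genes called in either direction. An unadjusted limma-trend p under 0.05 was reached by 12 of 41, 4 higher and 8 lower in CFIm25-m, beside 15.1% of all tested genes. Values of the groups did not overlap for 22 of 41, beside 36.8% of all tested genes. The median log2 fold change was -0.084, beside -0.011 over all tested genes. The called gene was CFC1, which encodes Cryptic, the second human EGF-CFC co-receptor for Nodal. CFC1 had 13.8 and 13.5 normalized counts in mock control, against 2.00, 0 and 0 in CFIm25-m. This is 26 reads in mock control against 2 reads in CFIm25-m, a ratio of 0.0465 with an exact 95% interval of 0.00535 to 0.186 for counting error only. Its limma-trend adjusted p of 0.0498 lay at the threshold, and was between 0.0548 and 0.331 when either mock control or either of CFIm25-m replicates 1 and 2 was left out. Its fitted log2 fold change was set by the pseudocount, with -1.74 for a pseudocount of 5 and -5.64 for 0.1, and is no estimate of size. CFC1 met the filter on low values only through mock control, where it was high, so its call is not independent of that filter. With no filter the limma-trend adjusted p of CFC1 was 0.0440, also close to the threshold. CFC1 has a near-identical copy in the genome, CFC1B, so its count is uncertain.

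The remaining roles held further values that did not pass the test. Among the ligands the highest level was that of GDF11 (1134 ± 74.9 and 1074 ± 212 in mock control and CFIm25-m) and the largest log2 fold change that of INHBA, the Activin A subunit, at -0.76 with a limma-trend adjusted p of 0.385 and levels near 20.2 and 11.5. FURIN, a convertase that cleaves TGF-beta family precursors, had both the highest level and the largest log2 fold change of its group, from 1625 ± 38.7 to 1349 ± 96.7, with a log2 fold change of -0.27 and a limma-trend adjusted p of 0.229. TGFBR1, the TGF-beta type I receptor, had the highest level among the receptors of this list, at 1452 ± 13.9 and 1628 ± 113. Its log2 fold change was 0.16 with a limma-trend adjusted p of 0.460. TGFBR3, a TGF-beta co-receptor that also binds inhibin, had 233 in both mock controls and 158, 155 and 124 in CFIm25-m. Its log2 fold change of -0.68 missed the threshold by limma-trend with an adjusted p of 0.0840 and passed with DESeq2, whose adjusted p was 0.0444, and it is named after its values were seen.

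Inhibitors, nuclear partners and targets were likewise uncalled. FST, which encodes the Activin antagonist follistatin, had a log2 fold change of -0.53 with a limma-trend adjusted p of 0.290, and NOMO1, the most abundant of the inhibitors, of -0.081 with an adjusted p of 0.727. Among the SMAD partners the homeobox co-repressors TGIF1 and TGIF2 had log2 fold changes of 0.32 and -0.33, with limma-trend adjusted p-values of 0.281 and 0.116. Of the 12 target genes 6 were tested, and the rest, such as EOMES, GSC, TBXT and SOX17, were below the filter on low values. NANOG, the most abundant target, was 1324 and 1298 in mock control and 852, 1118 and 1245 in CFIm25-m. Its log2 fold change was -0.31 with a limma-trend adjusted p of 0.360. LHX1, a LIM homeobox gene, had the largest log2 fold change of the targets, 0.81 with a limma-trend adjusted p of 0.331.

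**Figure D4:**
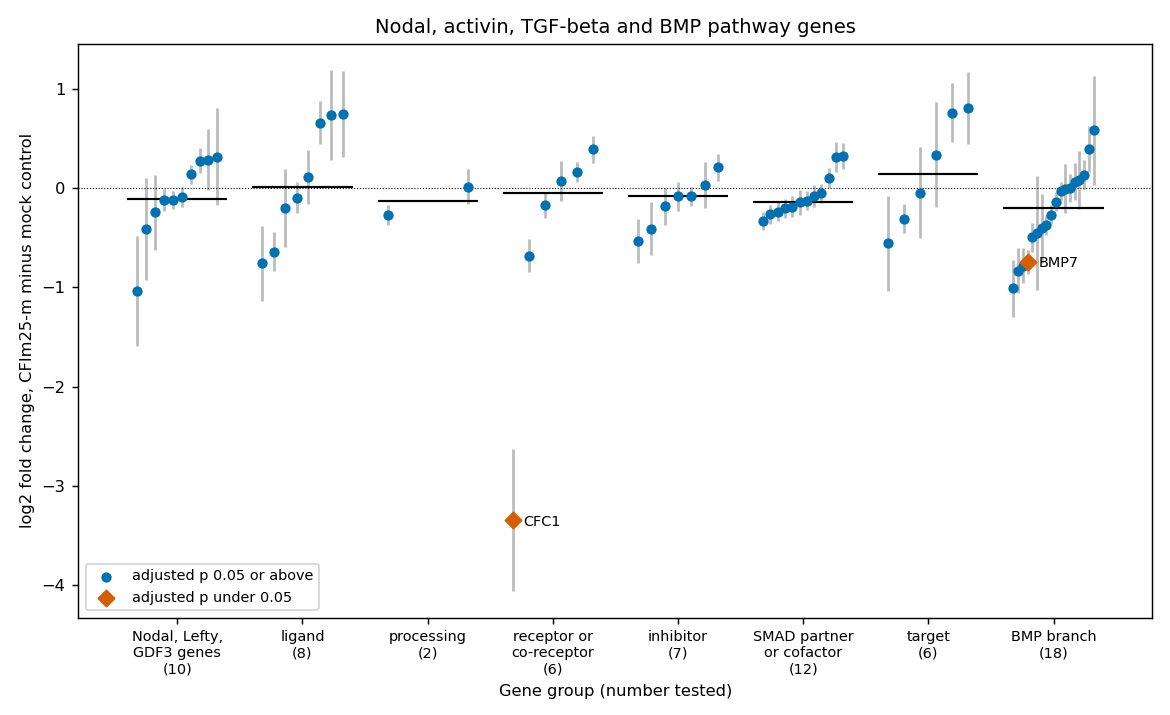
Log2 fold change (CFIm25-m minus mock control) of each tested gene by role, with its standard error as a grey bar and the median of the group as a black line. CFC1 and BMP7 (-0.74) are the genes with a limma-trend adjusted p under 0.05, the place of CFC1 depends on the pseudocount, and the core genes lie between -1.04 and 0.32.

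The neighbouring BMP branch signals through SMAD1, SMAD5 and SMAD9 and is antagonised by some of the same inhibitors. Of 19 genes of this branch 18 were tested, and limma-trend called 0 of 18 higher and 1 of 18 lower. This stands beside 1.88% of all tested genes called in either direction. The median log2 fold change was -0.20, and 7 of 18 had an unadjusted p under 0.05, all of them lower in CFIm25-m, beside 15.1% of all tested genes in either direction. The called gene was BMP7, a BMP ligand, with 605 and 595 in mock control and 364, 386 and 328 in CFIm25-m. Its log2 fold change was -0.74 with a limma-trend adjusted p of 0.0147. That adjusted p was 0.250 and 0.210 without mock control replicate 1 or 2, and 0.0662 without CFIm25-m replicate 1. ID3, a direct target of BMP signalling that inhibits other transcription factors, was 2332 and 2515 in mock control and 1732, 1525 and 1056 in CFIm25-m. It had a limma-trend adjusted p of 0.0614, and DESeq2 gave 0.00169. ID3 is named after its values were seen. The groups did not overlap for 8 of 18 genes of the branch, beside 36.8% of all tested genes. Among these, BMP4, BMP7, BMPR2, ID1, ID2, ID3 and ID4 lay below both mock controls in every clone, and only the ligand gene BMP2 lay above them. ID4 had the largest log2 fold change in size of the branch, -1.01 with a limma-trend adjusted p of 0.131. Of these genes, all except BMP7 are named after their values were seen. Whether the branches differ was not tested.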

How the data were processed

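Poly(A+) RNA-seq (oligo(dT), paired-end) of 5 H9 samples was assigned to groups from the labels. The authors deposited 1 table of normalized counts (a signal: the reads of each gene scaled by the size factor of its library). The submitters' processing notes name HISAT2, featureCounts of Subread, DESeq2 and hg38, and versions are not given in the sources used here. The authors' own fold changes and p-values in the table were not used. Of the 10 genes, 9 were found in the RefSeq table of GRCh38.p14 and all 9 overlapped their RefSeq position. All values of a library were whole multiples of the value of 1 read (100% of values, tolerance 0.01), and the recovered totals set the depth given above.

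The test was limma-trend (lmFit and eBayes of limma 3.58.1, R 4.3.3) on log2(value + 1), which understates changes of low genes. It covered the 19232 genes that reached 10 normalized counts in 2 or more samples. Adjustment was by Benjamini and Hochberg over all of them, with a threshold of 0.05. The p-values rest on the spread between single clones, which eBayes moderates with a variance trend over all tested genes. Without that trend 46 genes were called rather than 361. The limma-trend test was run on simulated data in which both groups had the same spread. That run does not cover a wider spread among the clones than between the mock controls. Alternatives were the count tests edgeR 4.0.16 and DESeq2 1.42.0 on recovered reads, other scalings, filters and pseudocounts, no variance trend, a block for the replicate number and leaving out each sample in turn. The summed LEFTY level was tested by exact permutation. Named were all 10 genes, in each role of the pathway list the gene with the highest level and that with the largest log2 fold change, list genes that passed the test, the edited gene, POU5F1 and SOX2, and loci overlapping or copying one of the 10. The genes and lists were chosen with earlier results of these data known. Some items are not reported here.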

Additional observations from a re-analysis of the deposited data

How the results depend on the processing

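Depth limited CER1 most of the 10 genes, with no more than 71 reads in every sample, and still its counting intervals in CFIm25-m replicates 1 and 3 did not overlap. The number of the 10 pathway genes called stayed at 0 under 13 of 15 alternatives. It was 2 without CFIm25-m replicate 3, where 5.56% of all tested genes were called, and the range over samples left out was 0 to 2. With a replicate block it was 4 (ACVR1B, LEFTY1, LEFTY2 and NODAL), beside 11% of all tested genes. The labels do not say that equal replicate numbers pair the samples. The correlations of same-numbered deviations were 0.00717 and 0.0180. They cannot exclude a shared batch, since differences among the clones could hide one. CFIm25-m replicate 3 has no partner, so the block leaves 1 residual degree of freedom and the calls of this fit rest on replicates 1 and 2.

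The count of all genes called was 361 and became 46 without the variance trend, 628 with DESeq2 and 2107 with the replicate block, and it ranged from 60 to 1069 with 1 sample left out. The number called among the other pathway genes was 1. It was 0 with equal totals, with a pseudocount of 0.1, with at least 10 in every sample (which removes CFC1) and without the variance trend, 12 with the replicate block, and 0 to 4 with 1 sample left out. With DESeq2 it was also 1, but the gene was TGFBR3, and CFC1 received no adjusted p. In the BMP branch 1 gene was called. The number was 0 without the variance trend, 2 with DESeq2, 6 with the replicate block, and 0 to 2 with 1 sample left out.

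Directions turned for genes that were not called. With 1 sample left out, the log2 fold change ranged from -0.81 to 0.24 for NODAL and from -0.71 to 0.11 for LEFTY2, both above 0 only without CFIm25-m replicate 1. It ranged from -0.077 to 0.48 for GDF3 and from -0.16 to 0.78 for CER1, both below 0 only without replicate 3. With the replicate block GDF3 was at -0.077 and CER1 at -0.16. The other 6 genes kept their direction under all 15 alternatives. With equal totals, higher calls rose from 181 of 361 to 238 of 385. The cause of these changes was not tested. The summed LEFTY level was lower in CFIm25-m under both other scalings and with each sample left out, by a difference that ranged from -383 to -45.7 when 1 sample was left out.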
